A study of Mus musculus with 2 samples.

Results

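Immunoglobulin and plasma cell genes were followed through a mouse liver single-cell RNA-seq series as a set of 9 genes among the 32285 genes listed for each library. The 9 were Igkc, Ighm, Ighd, Igha, Iglc1, Iglc2, Iglc3, Jchain and Mzb1, taken by gene symbol, and each had at least 1 UMI (unique molecular identifier, 1 counted transcript copy) in both libraries. The set was chosen by earlier values from these same data, in which Igkc stood high in the HKO library, so its levels are given as a description and with no test. The series held 2 libraries, 1 per genotype, from male littermates: WT, and HKO, in which miR-33 was deleted in hepatocytes by a Cre recombinase under the albumin promoter (genotype label AlbCRE). All mice ate CD-HFD, a diet rich in fat and poor in choline, from 8 weeks of age for 6 months, and each library pooled 3 livers, so that neither library holds a replicate of its genotype. Hepatocytes and live/dead-sorted non-parenchymal cells were mixed at equal numbers before droplet encapsulation with a 3′ kit. The proportion of hepatocytes to non-parenchymal cells that were loaded was thus set by the mixing. The albumin promoter drives Cre in hepatocytes and not in B cells or plasma cells, and the tables had no row for the deleted microRNA, which leaves the HKO label unchecked here.

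In the mm10 genome, the kappa light chain constant gene Igkc (ENSMUSG00000076609) lies on the plus strand at chr6:70726435-70726966, within the longer non-coding gene Gm30211 on the same strand. The heavy chain constant genes lie on the minus strand of chromosome 12, with Ighm (ENSMUSG00000076617) at chr12:113418558-113422730, Ighd (ENSMUSG00000104213) at chr12:113406604-113416324 and Igha (ENSMUSG00000095079) at chr12:113254830-113260236. Jchain (ENSMUSG00000067149) lies on the minus strand at chr5:88519809-88527891, and Mzb1 (ENSMUSG00000024353) on the minus strand at chr18:35647267-35649367. The 4 IgG constant genes Ighg1, Ighg2b, Ighg2c and Ighg3 are no members, and are given below where they lead a barcode.

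An antibody is built of heavy chains, whose constant gene sets the isotype (Ighm for IgM, Ighd for IgD, Igha for IgA), and of light chains from either the kappa or a lambda locus. A resting B cell makes IgM and IgD as receptors at its surface, and class switching joins its variable region to another constant gene. A plasma cell secretes antibody and fills a large part of its mRNA with 1 heavy and 1 light chain. Jchain links IgA and IgM into polymers, and Mzb1 is an endoplasmic reticulum protein that helps antibody assembly and secretion. In the liver, IgA is of interest because polymeric IgA is carried into bile.

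The 3 lambda constant genes lie close together on the minus strand of chromosome 16 and are partly alike in sequence, so that reads from one may have been assigned to another or left out. Their last 90 coding bases with the stop codon are shown because Iglc2 and Iglc3 are nearly identical there, and the untranslated bases beyond the stop codon were not compared. Capitals mark bases that differ from Iglc2 at the same distance from the stop codon, in mm10 at chr16:19198536-19198625 for Iglc2, chr16:19065365-19065454 for Iglc3 and chr16:19061752-19061841 for Iglc1, all read on the minus strand.
Iglc2: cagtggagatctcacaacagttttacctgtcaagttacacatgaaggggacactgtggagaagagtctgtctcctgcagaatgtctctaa
Iglc3: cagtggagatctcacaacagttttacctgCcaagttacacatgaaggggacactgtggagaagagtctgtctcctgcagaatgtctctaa
Iglc1: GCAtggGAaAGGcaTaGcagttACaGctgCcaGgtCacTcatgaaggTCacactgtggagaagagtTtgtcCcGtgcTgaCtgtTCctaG
Over this stretch Iglc3 differed from Iglc2 at 1 base and Iglc1 at 27 bases. Over the whole coding part of the constant exon, 12 single-base edits separated Iglc3 from Iglc2 and 85 separated Iglc1 from it. The UMIs of the 3 genes are therefore summed below wherever lambda is set against kappa.

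The WT library held 30078 barcodes and 130451427 UMIs with a median of 2658 UMIs per barcode, and the HKO library 20000 barcodes and 52563185 UMIs with a median of 1130. Most barcodes of both libraries, 27067 WT and 12571 HKO, were hepatocyte-like in profile but lay under 2 times their library's commonest depth of 2570 and 813 UMIs. These are called free RNA depth barcodes, since droplets with only RNA released from broken cells may have such a depth, and they are not taken as cells. Shallow hepatocytes among them were not set apart. The other barcodes were grouped by clustering that left out every immunoglobulin gene, and named from marker genes. Barcodes shared between the libraries were not analysed here, since the barcode sequences of the WT library were not used here.

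Over all barcodes, the 9 genes took 33405 WT and 34508 HKO UMIs, or 256 and 657 CPM (UMIs of a gene in 1000000 UMIs). The HKO/WT ratio of their CPM was 2.56 (2.53 to 2.60). All intervals are exact and cover counting error only, at a level of 95%, and treat UMIs as independent although UMIs of 1 barcode share a cell. Igkc, the most abundant member, had 21141 WT and 22455 HKO UMIs, with 162 and 427 CPM and a ratio of 2.64 (2.59 to 2.69). The sum depended on single barcodes. Without the 5 highest barcodes of each library its ratio was 4.08 (3.97 to 4.19), and without the immunoglobulin-rich barcodes defined below it was 1.65 (1.60 to 1.71).

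The ratios of the heavy chain genes spread more widely. Ighm had 649 WT and 2862 HKO UMIs (4.98 and 54.5 CPM) and a ratio of 10.9 (10.1 to 11.9). Ighd had 75 and 198 UMIs and a ratio of 6.55 (5.00 to 8.67), which turned to 0.439 (0.177 to 0.952) among barcodes with at least 5000 UMIs. Igha had 8063 and 5099 UMIs (61.8 and 97.0 CPM) and a ratio of 1.57 (1.52 to 1.63). Thinned to 750 UMIs per barcode, the ratio of Igha was 1.03 and that of Ighm 5.75. Unthinned, Igha was the only member whose ratio was under 2 over all barcodes. The lambda genes had ratios of 5.62 (4.39 to 7.23) for Iglc1, 4.91 (4.10 to 5.90) for Iglc2 and 5.88 (4.59 to 7.59) for Iglc3. Among barcodes with at least 5000 UMIs these were 3.1, 3.4 and 3.2. Jchain had 2925 and 2923 UMIs with a ratio of 2.48 (2.36 to 2.61), and Mzb1 183 and 178 UMIs with a ratio of 2.41 (1.95 to 2.98), or 1.32 as a mean over barcodes. Without the immunoglobulin-rich barcodes Igha turned to a ratio of 0.494 (0.445 to 0.547) and Jchain to 0.850 (0.714 to 1.01). Over all barcodes, 8 of 9 members had a CPM at least 2-fold higher in HKO, and for 0 members WT was higher by that much. Of all 18525 genes with at least 10 UMIs, HKO was higher by this measure for 22.4% and WT for 2.74%. Igkc led the values that chose the set, and nothing is read from the count of members.

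The UMIs of these genes were concentrated in a few barcodes. A single barcode held 44.7% of all member UMIs in WT, and 20.6% in HKO, and 2 barcodes in WT and 4 in HKO held at least 50% of them. For Igkc the highest barcode held 49.2% of the WT and 19.7% of the HKO UMIs, for Igha 37.1% and 37.4%, and for Jchain 51.2% and 25.2%. Ighm was spread in WT, where its highest barcode held 9.55% and 35 barcodes were needed for 50% of the UMIs. In HKO the highest barcode held 34.7% of Ighm and 3 barcodes were enough.
Ighd, the gene of the resting B cell receptor, had 9.33% of its 75 WT and 3.54% of its 198 HKO UMIs in 1 barcode, and needed 15 and 32 barcodes for 50%. Of the members with at least 100 UMIs, 5 of 6 in WT and 6 of 9 in HKO had 10% or more of their UMIs in 1 barcode. The same held for 0.887% of 12625 genes in WT and 0.578% of 11940 genes in HKO. The median gene had 0.478% of its UMIs in its highest barcode in WT and 0.648% in HKO.

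**Figure D1:**
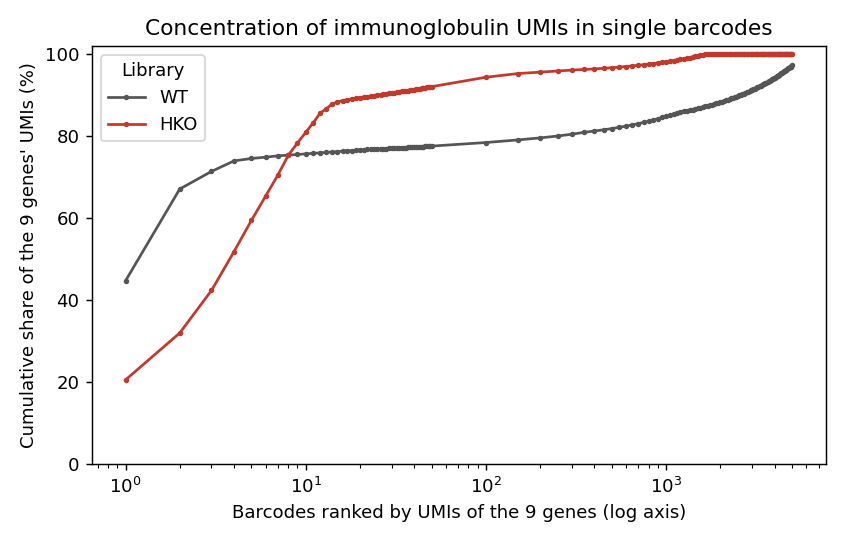
Cumulative share of the UMIs of the 9 genes (y axis, %) against barcodes ranked by those UMIs (x axis, log scale), in WT (grey) and HKO (red). The first WT barcode holds 44.7% and the first 5 hold 74.6%, while the first 5 HKO barcodes hold 59.5%. The other UMIs are spread over up to 5911 WT and 1641 HKO barcodes.

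Beneath these few barcodes lay a wide layer of single UMIs. In WT 5911 barcodes (19.7%) held at least 1 member UMI, 4761 of them exactly 1, and in HKO 1641 barcodes (8.21%), 1366 of them exactly 1. Igkc was found in 3692 WT barcodes and 966 HKO barcodes, with 1 UMI in 3195 and 810 of them.

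Immunoglobulin-rich barcodes were defined as those with at least 50 member UMIs that made up at least 5% of their UMIs, which is a range of a measured value and not a cell type. There were 4 in WT (0.0133% of barcodes, 0.00362 to 0.0341) and 11 in HKO (0.0550%, 0.0275 to 0.0984), holding 74.0% and 83.2% of the member UMIs of their libraries. These shares are of all barcodes, most of which were at free RNA depth. Barcodes that passed the filters and were not hepatocyte-like in profile numbered 511 in WT and 1723 in HKO, and against these the WT share was not lower. The immunoglobulin-rich barcodes are numbered by rank among the barcodes of their library with the most member UMIs. Just inside the limit of 5% were WT barcode 4 with 5.38% and HKO barcode 7 with 9.48%, and just outside it were HKO barcode 11 with 4.34%, HKO barcode 14 with 3.85% and WT barcode 6 with 3.29%. A limit of 1% was passed by 10 WT and 18 HKO barcodes, and a limit of 20% by 2 and 7.

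Each immunoglobulin-rich barcode was led by a single heavy chain gene, which took 96.2% or more of its heavy chain constant UMIs. In WT, 3 of 4 were led by Igha. WT barcode 1 had 10397 Igkc, 2990 Igha and 1496 Jchain UMIs among 23836, so that 62.7% of its UMIs came from the 9 genes. WT barcode 2 had 4758 Igkc, 1957 Igha and 740 Jchain UMIs among 25489 (29.3%). WT barcode 3 had more Igha than Igkc, 885 against 474 UMIs, and 46 Jchain UMIs among 10655 (13.4%).

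In HKO, 7 of 11 were led by Igha. HKO barcode 1 had 4421 Igkc, 1907 Igha and 736 Jchain UMIs, and HKO barcode 2 had 2821, 639 and 470. The other 5 Igha-led barcodes had between 175 and 652 Igha UMIs. The Igkc UMIs per Igha UMI in these 7 ran from 1.44 to 4.42, and the Jchain UMIs per 100 Igha UMIs from 26.9 to 76.1. In the 3 WT Igha-led barcodes the ranges were 0.536 to 3.48 and 5.20 to 50.0, so the libraries overlapped in both.

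The other 4 immunoglobulin-rich HKO barcodes were led by Ighm, and WT had none. HKO barcode 4 had 992 Ighm, 2118 Igkc and 134 Jchain UMIs, HKO barcode 6 had 338, 1578 and 100, HKO barcode 7 had 419, 1212 and 91, and HKO barcode 12 had 266, 425 and 89. Together they held 2015 of the 2862 Ighm UMIs of HKO, and with immunoglobulin-rich barcodes left out the ratio of Ighm fell from 10.9 to 3.24 (2.92 to 3.59). The 4 Ighm-led barcodes had Jchain but no Ighd UMI, and Jchain UMIs per 100 Ighm UMIs ran from 13.5 to 33.5. No immunoglobulin-rich barcode of either library held an Ighd UMI, among 6219 WT and 6687 HKO heavy chain UMIs, which allows a share of up to 0.0482% and 0.0449%.

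High IgG counts were found in single barcodes of different subclass. WT barcode 4 had 329 Ighg2b, 736 Igkc and 114 Jchain UMIs. HKO barcode 11 had 307 Ighg1 and 720 Igkc UMIs and HKO barcode 14 had 119 Ighg2c and 361 Igkc UMIs, with 66 and 25 Jchain UMIs. These 3 barcodes set the totals of their genes in their own library. Ighg1 had 48 WT and 315 HKO UMIs, with 97.5% of the HKO UMIs in HKO barcode 11, while the WT UMIs were spread over 42 barcodes. Ighg2b had 436 and 18 UMIs, with 75.5% of the WT UMIs in WT barcode 4. Ighg2c had 6 and 130 UMIs, with 91.5% of the HKO UMIs in HKO barcode 14. Ighg3 had 9 and 2 UMIs. Ighe, the IgE gene, had 0 UMIs in either library, which allows up to 0.0230 (WT) and 0.0571 (HKO) CPM. A few Igha-led barcodes also had Ighg2b UMIs, 32 in WT barcode 1, 26 in WT barcode 2 and 14 in HKO barcode 9.

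**Figure D2:**
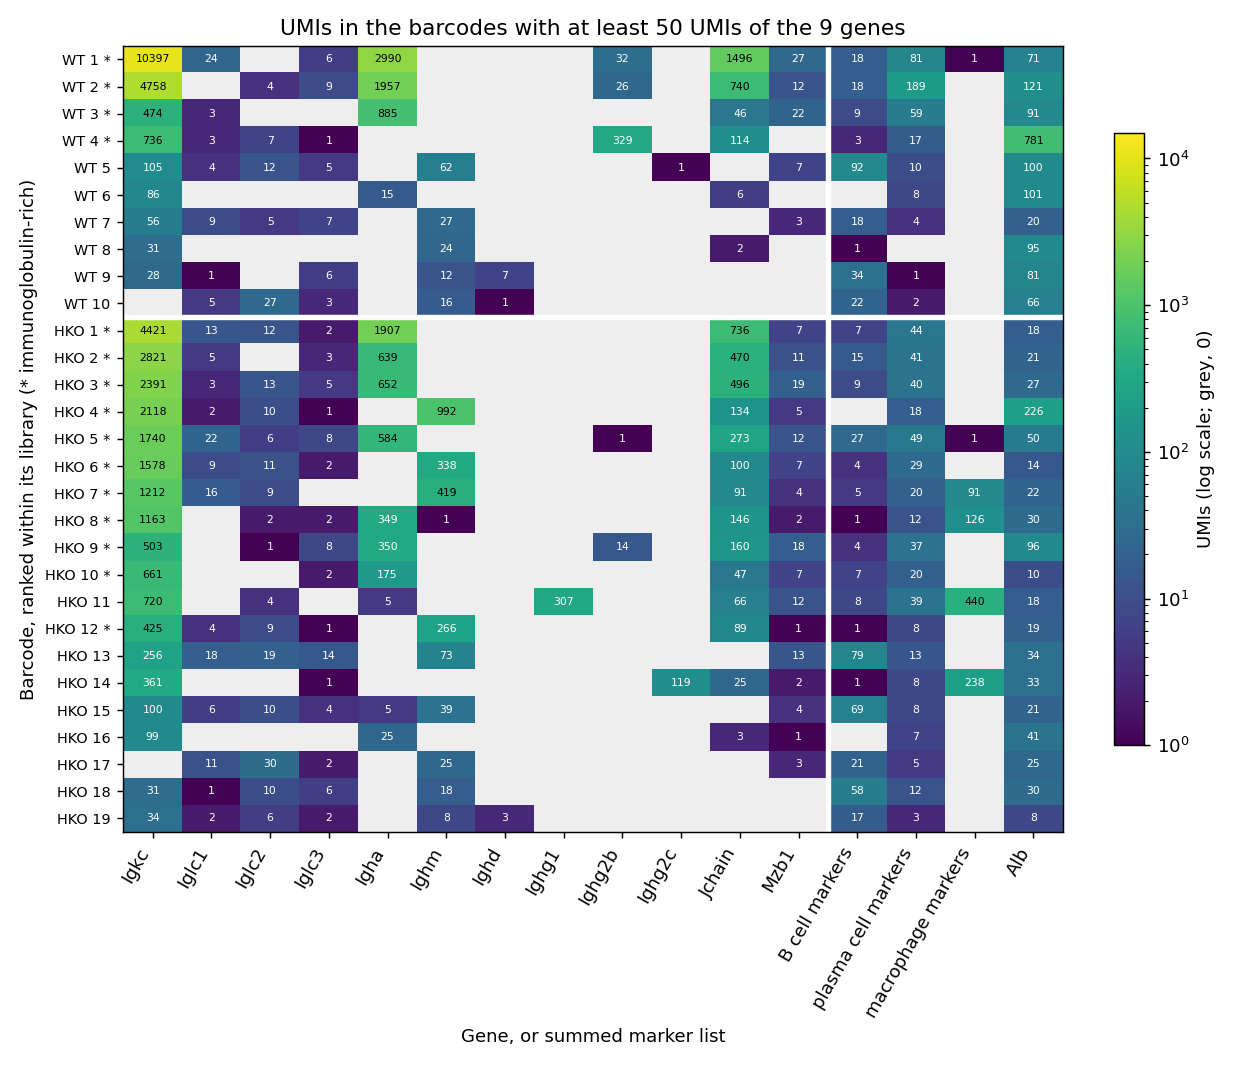
UMIs of the members, 3 IgG genes, 3 summed marker lists and Alb (columns, colour on a log scale, grey for 0) in each barcode with at least 50 member UMIs (rows, 10 WT above the white line and 19 HKO below it; stars mark immunoglobulin-rich barcodes). Each starred row has 1 dominant heavy chain gene together with Igkc and Jchain, while rows with Ighm, Iglc genes and B cell markers but no Jchain are not starred.

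By constant genes, light chain UMIs in the immunoglobulin-rich barcodes were nearly all kappa. Igkc made up 98.5% to 99.7% of light chain constant UMIs in WT and 96.8% to 99.7% in HKO, and no barcode with at least 50 member UMIs and at least 10 Jchain UMIs was led by a lambda gene. The variable (V) genes, which differ between B cell clones, had few UMIs, since a 3′ method reads the constant end. Of the immunoglobulin-rich barcodes with at least 5 kappa V UMIs, 10 of 14 had 90% or more of them from 1 gene, and 7 of 9 did for heavy V UMIs. The lowest shares of a leading gene were 50.0% for kappa, in HKO barcode 8 with 4 of 8 UMIs from Igkv5-43, and 62.5% for heavy, in HKO barcode 4 with 5 of 8 from Ighv1-53. WT barcode 1 had 136 of its 137 kappa V UMIs from Igkv1-117 and all 43 heavy V UMIs from Ighv1-9. HKO barcode 1 had 112 of 113 from Igkv3-2 and all 54 from Ighv3-6. HKO barcode 4 had all 72 kappa V UMIs from Igkv3-4, and HKO barcode 2 all 40 from Igkv2-109.
The leading kappa V gene differed among the 4 WT barcodes. In HKO, Igkv3-4 led in both barcode 4 and barcode 7, which are both led by Ighm, and Igkv10-96 in both barcode 5 and barcode 10, which are both led by Igha. A shared gene name does not show a shared clone, since the joining sequence is not in the count tables. The lambda V gene Iglv1 had 85 UMIs in HKO barcode 2, 31 in WT barcode 1, 23 in WT barcode 2 and 16 in HKO barcode 9, where the lambda constant genes summed to 8, 30, 13 and 9 UMIs. By V genes, lambda stood above kappa in HKO barcode 2, with 88 against 40 UMIs, and in HKO barcode 9, with 18 against 7, and equalled it in WT barcode 2, with 24 each. In these 3 barcodes the constant and the V genes thus gave different light chain makeups, and how far lambda constant reads were left out in counting was not tested.

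The immunoglobulin-rich barcodes carried plasma cell genes that were not used to choose them. Of 12 plasma cell markers, they had UMIs of 7 to 11 in WT and of 5 to 12 in HKO. Of 14 B cell markers they had 2 to 5 and 0 to 6. In CPM, 12 of 12 plasma cell markers in WT and 11 of 12 in HKO were higher there than in free RNA depth barcodes, 11 in either library by more than 2-fold. Of all genes with at least 10 UMIs, 14.6% of 17313 in WT and 27.4% of 16639 in HKO were more than 2-fold higher there. By the same measure 6 and 9 of 14 B cell markers were higher, and in HKO 8 of 10 macrophage and 6 of 13 T and NK markers, against 0 and 1 in WT. Sdc1 (CD138), a surface marker of plasma cells that hepatocytes also make and that was named after its values were seen, stood at 237 and 94.4 CPM against 179 and 125 CPM. Txndc5, a protein disulfide isomerase, and Xbp1, the transcription factor of the secretory programme, were found in 4 of 4 WT and 11 of 11 HKO barcodes. In immunoglobulin-rich barcodes Txndc5 stood at 1027 (WT) and 679 (HKO) CPM, against 84.6 and 42.7 CPM in free RNA depth barcodes. Xbp1 stood at 1342 and 519 CPM against 149 and 105 CPM. Eaf2 (513 and 349 CPM), Pou2af1 (369 and 217 CPM), a B lineage coactivator, and Irf4 (145 and 226 CPM), a transcription factor that plasma cells need, were each under 2 CPM in free RNA depth barcodes. In the B and plasma-like class without these barcodes, Pou2af1 stood at 154 and 245 CPM, Irf4 at 77.2 and 167 CPM and Eaf2 at 11.9 and 35.7 CPM. There 6 of 12 plasma cell markers in WT and 7 in HKO were more than 2-fold above free RNA depth barcodes. So were 23.5% and 35.9% of all genes with at least 10 UMIs. In T and NK-like barcodes 5 and 6 were, against 33.6% and 40.8% of all genes. In the immunoglobulin-rich barcodes Cd79a, a chain of the B cell receptor complex, stood at 303 and 189 CPM, while Pax5, which holds B cell identity, had 0 UMIs and Ms4a1 (CD20) had 0 and 2 UMIs.

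Genes of immunoglobulin secretion and folding were high in the same barcodes. Of 14 genes on that list, 13 in WT and 14 in HKO had a higher CPM there than in free RNA depth barcodes, 10 and 13 of them by more than 2-fold. The chaperone Hsp90b1 had 3580 and 2501 CPM against 721 and 387, and Hspa5 (BiP), which binds unassembled heavy chains, 1171 and 1095 CPM against 674 and 354. The translocon gene Ssr4 had 763 and 1378 CPM against 99.3 and 99.4, and the signal peptidase subunit Sec11c 750 and 802 CPM against 42.4 and 28.7. In the B and plasma-like class without these barcodes, 1 of 14 genes in either library was more than 2-fold above free RNA depth barcodes. The proliferation gene Mki67 had 37 UMIs in 2 of the 4 WT barcodes and 1 UMI in the 11 HKO barcodes.

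Clustering without immunoglobulin genes placed 8 of the 15 immunoglobulin-rich barcodes in the B and plasma-like class, 3 of 4 WT and 5 of 11 HKO. WT barcode 4 fell in the hepatocyte-like class, with 781 Alb UMIs and 32.0% mitochondrial UMIs. HKO barcodes 4 and 12 fell there too, with 226 and 19 Alb UMIs. HKO barcode 1 fell in the T and NK-like class with 8 UMIs from 5 of 13 T and NK markers, and HKO barcode 2 in the cholangiocyte-like class.
HKO barcodes 7 and 8 fell in classes with macrophage markers and had UMIs of 8 of 10 macrophage markers each, 91 and 126 in all. The IgG barcodes HKO 11 and HKO 14, just under the limit, had 8 and 10 of these markers with 440 and 238 UMIs. C1qa, a complement gene of macrophages, had 17, 18, 87 and 34 UMIs in these 4 barcodes and 0 in every other barcode with at least 50 member UMIs. Whether such barcodes hold 2 cells or 1 cell with another's RNA was not tested.

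Below the immunoglobulin-rich barcodes came another kind. WT barcode 5 had 62 Ighm, 105 Igkc and 21 lambda UMIs with 11 of 14 B cell markers and 0 Jchain UMIs, and HKO barcode 13 had 73 Ighm, 256 Igkc and 51 lambda UMIs with 12 of 14 markers and 0 Jchain UMIs. WT barcode 10 and HKO barcode 17 had 0 Igkc UMIs and 35 and 43 lambda UMIs, with 16 and 25 Ighm UMIs. Of the barcodes with at least 50 member UMIs that were neither immunoglobulin-rich nor led by an IgG gene, 4 of 6 WT and 5 of 6 HKO barcodes fell in the B and plasma-like class. In the 6 WT barcodes the members made up 1.02% to 3.29% of the UMIs. WT barcode 6, at free RNA depth with 3251 UMIs, had 86 Igkc, 15 Igha and 6 Jchain UMIs and 0 B cell markers. HKO barcode 16, with 35.8% mitochondrial UMIs, had 99 Igkc, 25 Igha and 3 Jchain UMIs and 0 B cell markers.

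The B and plasma-like class held 34 WT and 199 HKO barcodes. This was 0.115% (0.0795 to 0.160) of WT and 1.09% (0.945 to 1.25) of HKO barcodes that passed the filters, but most of those were at free RNA depth. Of barcodes that passed the filters and were not hepatocyte-like in profile, the shares were 6.65% (4.65 to 9.17) of 511 and 11.5% (10.1 to 13.2) of 1723. Per T and NK-like barcode there were 0.327 in WT and 0.437 in HKO. Taking barcodes with at least 3 of 14 B cell markers in place of clusters gave 70 WT and 203 HKO barcodes. With 1 library per genotype and a sort and mixing step before it, a difference in numbers between the genotypes and a difference between these preparations cannot be told apart.

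Without the immunoglobulin-rich barcodes, 31 WT and 194 HKO barcodes of this class remained, with a median of 4800 and 1827 UMIs. At least 1 member UMI was found in 28 of 31 (90.3%, 74.2 to 98.0) WT and 151 of 194 (77.8%, 71.3 to 83.5) HKO barcodes. At an equal depth of 750 UMIs per barcode, with 0 barcodes left out, the shares were 64.5% (45.4 to 80.8) and 68.6% (61.5 to 75.0). T and NK-like barcodes are set beside this class, but are no clean baseline, since Ighm stood above its Alb-scaled free RNA level in them, as given below. There the shares were 7.69% (3.38 to 14.6) and 4.63% (2.89 to 6.98) at that depth, and 47.1% and 16.7% at median full depths of 7170 and 2806 UMIs.

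In level, Ighm had 239 WT and 597 HKO UMIs in B and plasma-like barcodes (1419 and 1421 CPM, ratio 1.00, 0.860 to 1.17). Igkc had 340 and 1306 UMIs (2018 and 3108 CPM, ratio 1.54, 1.37 to 1.74). Ighd had 33 and 159 UMIs (196 and 378 CPM, ratio 1.93, 1.32 to 2.90). The lambda genes had ratios of 1.38 to 1.42, with 73 and 251 Iglc2 UMIs, and the intervals of Iglc1 and Iglc3 included 1. Mzb1 had 20 and 60 UMIs, a ratio of 1.20 (0.715 to 2.11). Jchain had 0 UMIs in 31 WT barcodes, which by the floor of 3 counts allows a share of up to 9.68% of barcodes with a Jchain UMI at this depth, and 2 UMIs in 1 of 194 HKO barcodes. Igha had 2 and 41 UMIs, a ratio of 8.22 (2.14 to 70.1), and 33 of the 41 HKO UMIs were in 1 barcode. Apart from Igha and Jchain, each ratio here, without the immunoglobulin-rich barcodes, was smaller than the member's ratio over all barcodes, which kept them. With them kept in the class too, the ratios of all 9 members were smaller than over all barcodes. The summed members then had a ratio of 0.261 (0.256 to 0.267), against 1.375 (1.27 to 1.49) without them. Igkc turned to 0.256, Igha to 0.154 and Mzb1 to 0.759, and Jchain stood at 0.236. Ighm, Ighd and the lambda genes stayed above 1.

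The class was made of 2 clusters that differed in member levels. The first, led by Fcmr, Cd79a and Ms4a1 and with all 14 B cell markers, had 13 WT and 93 HKO barcodes, all with a member UMI, and a median of 34 and 18 member UMIs. The other, led by Eaf2, Pou2af1 and Ebf1, had 18 WT and 101 HKO barcodes without the immunoglobulin-rich ones, with a median of 3 and 1 member UMIs. In HKO, 43 of these 101 barcodes had 0 member UMIs, at a median depth of 1260 UMIs against 2462 in the first cluster. Thinned to 750 UMIs, 98.9% (94.2 to 100.0) of the HKO barcodes of the first cluster and 40.6% (30.9 to 50.8) of the second still had one. All 8 immunoglobulin-rich barcodes of the class were in the second cluster, so that its mean level rests on them.

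Within the class IgM and IgD were made side by side. Ighm was found in 25 of 31 WT and 128 of 194 HKO barcodes, Ighd in 15 and 83, and both in 13 and 68. Igha was found in 2 of 31 and 5 of 194 barcodes, and an IgG gene in 3 and 4. Of heavy chain constant UMIs, Ighm and Ighd made up 86.0% and 11.9% in WT and 74.4% and 19.8% in HKO, and Igha 0.719% (0.0872 to 2.58) and 5.11% (3.69 to 6.87). Without the barcode with the most Igha UMIs, which was left out after its value was seen, the Igha share was 1.04% (0.451 to 2.04) in HKO and 0.362% (0.00917 to 2.00) in WT. This makeup was unlike that of the immunoglobulin-rich barcodes, where Igha took 93.8% of 6219 UMIs in WT, with Ighg2b at 6.22%, and 69.6% of 6687 UMIs in HKO, with Ighm at 30.1%.

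Light chain constant UMIs were mixed in this class, and nearly all kappa in the immunoglobulin-rich barcodes. Igkc made up 69.8% (65.5 to 73.9) of light chain UMIs in WT and 71.8% (69.7 to 73.9) in HKO. Of barcodes with at least 3 light chain UMIs, 7 of 17 WT and 39 of 97 HKO barcodes had at least 80% kappa, 2 and 6 had at most 20%, and 8 and 52 lay between. A B cell clone normally uses 1 light chain type. The part of free RNA in this mixture was not tested. The Alb-scaled free RNA level of Iglc2, the most abundant lambda gene, came to 0.0901 UMIs in the whole WT class and 0.114 in the whole HKO class, against 73 and 251 found. For Igkc the same scaling gives 4.47 and 5.85 against 340 and 1306 found.

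**Figure D3:**
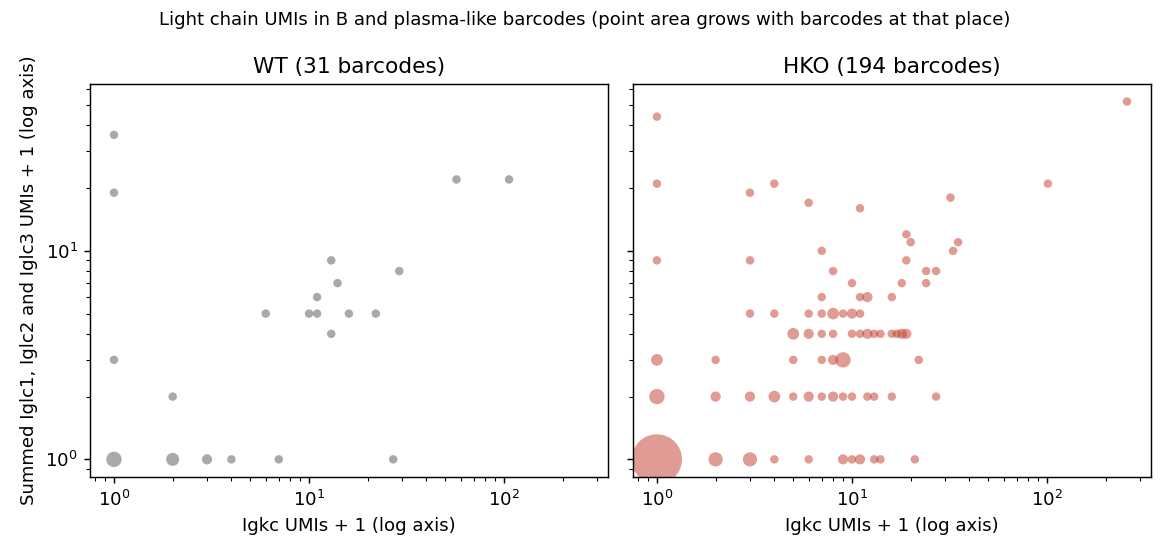
Igkc UMIs (x axis) against summed Iglc1, Iglc2 and Iglc3 UMIs (y axis), each plus 1 on a log axis, in B and plasma-like barcodes without the immunoglobulin-rich ones, for 31 WT (grey) and 194 HKO (red) barcodes. Larger points stand for several barcodes at 1 position. Of the barcodes with at least 3 light chain UMIs, 2 WT and 6 HKO barcodes have at most 20% kappa and 8 and 52 lie between 20% and 80%.

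The list of 14 B cell receptor signalling genes holds Cd79a and Cd79b, which are also B cell markers that named the class. Of these 14 genes, 13 in either library were more than 2-fold above free RNA depth barcodes in B and plasma-like barcodes. In T and NK-like barcodes 10 and 8 were, and in immunoglobulin-rich ones 9 and 11. Of all genes with at least 10 UMIs, 23.5% in WT and 35.9% in HKO were so in the B and plasma-like class, and 33.6% and 40.8% in T and NK-like barcodes. Prkcb, a kinase downstream of the receptor, stood at 861 (WT) and 1095 (HKO) CPM, Syk at 683 and 1052 CPM, Lyn at 706 and 1004 CPM, and the adaptor Blnk at 445 and 376 CPM. All 14 B cell markers were more than 2-fold above free RNA depth barcodes in both libraries, led by Bank1 at 2297 and 3134 CPM and Ralgps2 at 546 and 771 CPM. The class was named from these markers being high, so this count follows from the naming. Of 11 survival and homing genes, among them the plasma cell marker Tnfrsf13b, 6 in WT and 8 in HKO were more than 2-fold above free RNA depth barcodes. In T and NK-like barcodes 7 and 8 were, so this list did not set the class apart from them. Ccr7, a receptor that guides cells into lymph nodes, stood at 77.2 and 85.7 CPM, and Cxcr5, the receptor that draws B cells into follicles, had 16 and 30 UMIs. Of these, Cxcr5 had 0 UMIs in the immunoglobulin-rich barcodes.
Among 7 class switching and germinal centre genes, Bach2, which holds back the plasma cell programme, stood at 1733 and 2061 CPM, 3 in WT and 4 in HKO were more than 2-fold above free RNA depth barcodes, and Bcl6 stood at 101 and 57.1 CPM. Of 9 immunoglobulin receptor genes, 2 and 3 were more than 2-fold above. Fcmr, the IgM receptor and also a B cell marker used in naming, stood at 119 and 143 CPM in this class with 0 UMIs in the immunoglobulin-rich barcodes. Pigr, which carries polymeric IgA into bile, was higher in hepatocyte-like (1020 and 904 CPM) and free RNA depth barcodes (1359 and 1761 CPM) than in this class (813 and 709 CPM). Of 13 T and NK markers, 0 in WT and 4 in HKO were more than 2-fold above free RNA depth barcodes in the class, of 10 macrophage markers 0 and 0, and of 7 plasmacytoid dendritic cell markers 1 and 5.

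At free RNA depth, the members were found at low counts in many barcodes. In WT 6107 UMIs fell in 27067 barcodes (86.3 CPM, 84.2 to 88.5) and in HKO 813 UMIs in 12571 barcodes (65.8 CPM, 61.3 to 70.5). The ratio was 0.762 (0.708 to 0.820), below 1 where that of all barcodes was above it. A member UMI was found in 18.0% of these WT barcodes and 5.97% of these HKO barcodes, at median depths of 2607 and 899 UMIs. At 750 UMIs per barcode the shares were 6.11% (5.83 to 6.40) and 4.70% (4.34 to 5.09), with 193 shallower WT barcodes and 0 HKO barcodes left out. Most such barcodes had 1 UMI, 4069 in WT and 710 in HKO, against 181 and 6 with 3 or more. With the UMIs spread evenly, 48.2 and 0.618 barcodes would be expected to have 3 or more. The highest barcodes held 107 and 14 UMIs.

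The isotype makeup at free RNA depth was mostly Igha, as in the immunoglobulin-rich barcodes. Igha made up 82.6% (80.9 to 84.2) of 2038 heavy chain UMIs in WT and 66.8% (61.1 to 72.1) of 295 in HKO, and Ighm 11.9% (10.5 to 13.4) and 24.7% (19.9 to 30.1). In B and plasma-like barcodes Igha was at most 5.11%. Igkc UMIs per Igha UMI were 2.09 and 2.35 at free RNA depth, 2.81 and 4.09 in the immunoglobulin-rich barcodes, and 170 and 31.9 in the B and plasma-like class without them. The values of that class rest on 2 WT and 41 HKO Igha UMIs, and without the barcode with the most Igha UMIs the HKO value was 162 over 8 UMIs and the WT value 339 over 1 UMI. Where the immunoglobulin RNA at free RNA depth came from was not tested.
By gene, Igkc at free RNA depth had a ratio of 0.751 (0.680 to 0.828), Igha 0.670 (0.575 to 0.777) and Jchain 0.523 (0.368 to 0.724). Ighm went the other way, at 3.42 and 5.91 CPM with a ratio of 1.73 (1.31 to 2.25), which was 1.22 (0.858 to 1.70) without the top Scrublet doublet scores. Ighd had 27 and 17 UMIs, a ratio of 3.60 (1.84 to 6.86).

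**Figure D4:**
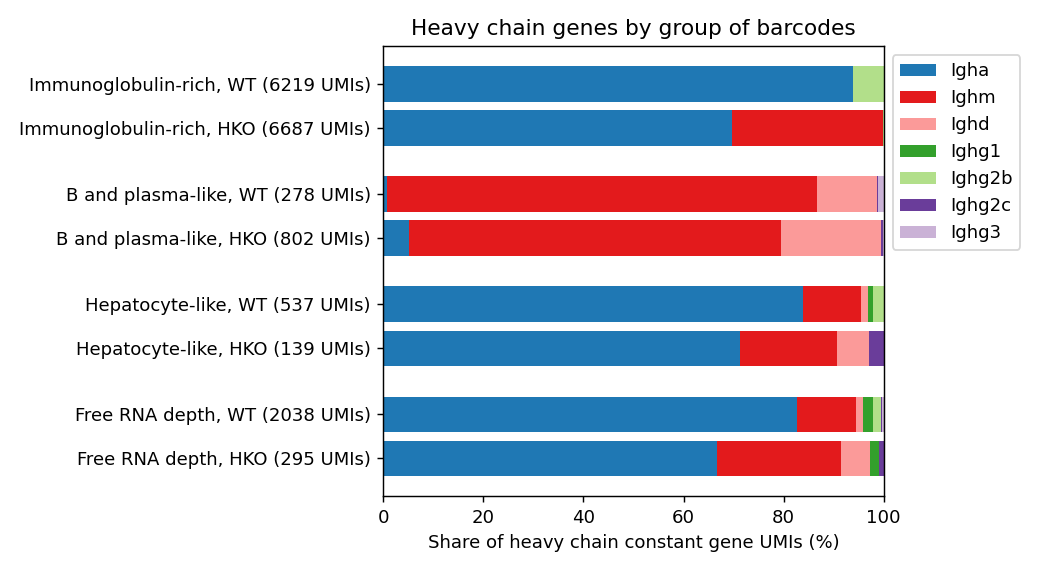
Share of heavy chain constant gene UMIs (x axis, %) taken by each isotype gene in 4 groups of barcodes of each library, with the number of UMIs in brackets; the B and plasma-like and hepatocyte-like classes are without immunoglobulin-rich barcodes. Igha takes 93.8% and 69.6% in immunoglobulin-rich barcodes and 82.6% and 66.8% at free RNA depth, while Ighm and Ighd fill the B and plasma-like class.

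In hepatocyte-like barcodes, which are not known to make these genes, a few barcodes set the comparison. With every barcode of the class, Igkc stood at 28.7 CPM in 2042 WT and 103 CPM in 3953 HKO barcodes, a ratio of 3.60 (3.37 to 3.83). WT barcode 4 held 736 of the 1453 WT Igkc UMIs, and HKO barcodes 4 and 12 held 2118 and 425 of the 2809 HKO UMIs. Without these 3 immunoglobulin-rich barcodes Igkc stood at 14.2 and 9.78 CPM, a ratio of 0.690 (0.597 to 0.795). The direction of Igkc turned without them. The summed members went from a ratio of 3.78 (3.60 to 3.98) to 0.617 (0.553 to 0.687), and Ighm from 37.9 (29.4 to 49.7) to 0.797 (0.488 to 1.27), with 63 WT and 27 HKO UMIs left. Igha, which none of the 3 barcodes held, had a ratio of 0.409 (0.326 to 0.510) in both cases. With at least 5000 UMIs per barcode in both libraries, the ratio of Igha was 0.258 (0.188 to 0.346).
Without the 3 barcodes, 36.2% of WT and 10.1% of HKO hepatocyte-like barcodes had a member UMI, and 2.40% (1.78 to 3.16) and 1.75% (1.36 to 2.21) at 750 UMIs. Their heavy chain makeup, 83.8% and 71.2% Igha, was near that at free RNA depth. Scaling the free RNA by Alb would give 4593 WT and 1632 HKO member UMIs in these barcodes against 1354 and 449 found. Hepatocyte-like barcodes hold Alb UMIs of their own cell, so in this class the scaled values are too high as a free RNA level. Nothing is read from the gap between the scaled and the found values. The scaling also takes the makeup of free RNA as fixed, which was not tested.

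Other classes were also moved by single barcodes. In the B and plasma-like class the shift ran the other way, with 1 WT barcode holding 60.7% of the 24631 WT UMIs. The ratio of the summed members there was 0.261 with every barcode and 1.375 without the immunoglobulin-rich ones. In HKO, 1 barcode held 98.6% of the member UMIs of the T and NK-like class, 99.3% of those of the cholangiocyte-like class and 98.3% of those of the mixed macrophage, endothelial and stellate class. In the macrophage-like class the 2868 HKO UMIs were made of 1665 in HKO barcode 8, 807 in HKO barcode 11, 389 in HKO barcode 14 and a few others, against 7 UMIs in 20 WT barcodes. In the endothelial-like class the 64 WT UMIs, against 26 in HKO, included 40 in 1 barcode.

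**Figure D5:**
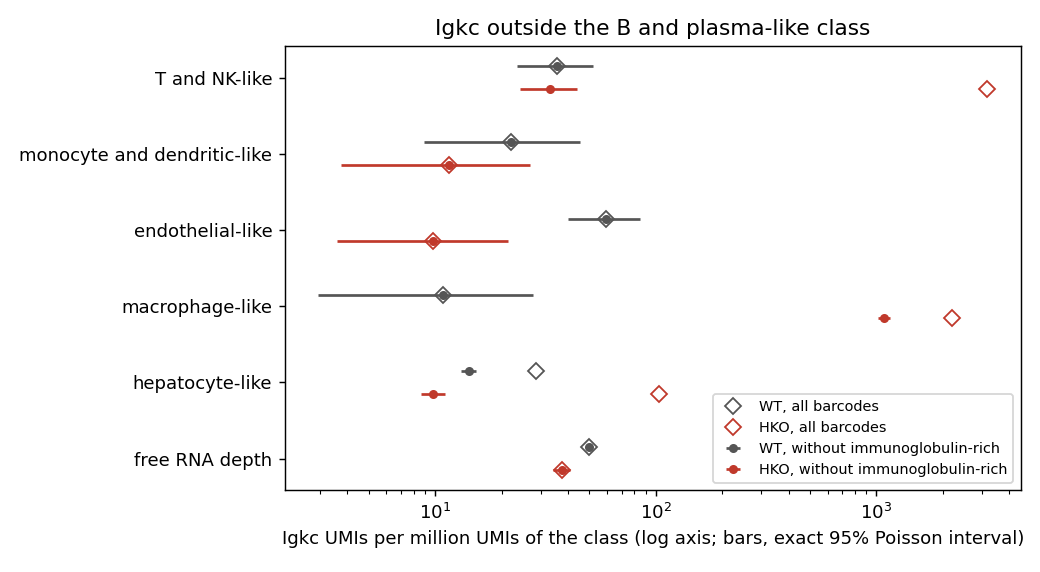
Igkc CPM (x axis, log scale) in 6 classes of barcodes of WT (grey) and HKO (red), over all barcodes (open diamonds) and without the immunoglobulin-rich ones (filled points, bars are exact 95% Poisson intervals). In the hepatocyte-like class the HKO value lies above WT with every barcode (103 against 28.7) and below it without them (9.78 against 14.2).

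Ighm was also found in other classes of immune barcodes than the B and plasma-like one. In T and NK-like barcodes without the immunoglobulin-rich one, Ighm had 45 WT UMIs in 26 of 104 barcodes and 45 HKO UMIs in 34 of 454, with at most 6 per barcode. The Alb-scaled free RNA level was 1.04 and 2.21 UMIs. Of the barcodes with Ighm, 19 of 26 WT and 30 of 34 HKO barcodes had no light chain UMI. In monocyte and dendritic-like barcodes Ighm had 34 and 20 UMIs in 11 of 33 and 14 of 96 barcodes, against a scaled 0.321 and 0.521, and 10 and 14 of those barcodes had no light chain UMI. In T and NK-like barcodes there were 27 WT and 46 HKO Igkc UMIs beside these 45 and 45 of Ighm. Igkc UMIs per Ighm UMI were 0.6 and 1.02 in WT and HKO T and NK-like barcodes and 0.206 and 0.250 in monocyte and dendritic-like barcodes. In the B and plasma-like class the ratios were 1.42 and 2.19, and at free RNA depth 14.6 and 6.33. These ratios rest on 7 WT and 5 HKO Igkc UMIs in the monocyte and dendritic-like class, and the source of the Ighm UMIs was not tested. In the mixed plasmacytoid dendritic and monocyte and dendritic class, Ighm had 6 and 25 UMIs in 2 of 3 and 9 of 20 barcodes, against a scaled 0.0314 and 0.107, with 0 Igkc UMIs, and 1 and 6 of those barcodes had no light chain UMI. In macrophage-like barcodes Ighm had 0 WT and 1 HKO UMI.

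The summed members were most like the genes Cacna1e, Gm30211, Cd79a, Pou2af1 and Lpar2 across 9 classes in each library, or 18 profiles. Their Pearson r of log2(CPM + 1) ran from 0.872 for Cacna1e to 0.838 for Lpar2, with 0.863 for Gm30211, 0.847 for Cd79a and 0.846 for Pou2af1. Gm30211 spans Igkc on the same strand, so reads of one may have been counted for the other. These 18 points share 2 libraries, depth and free RNA, and the immunoglobulin-rich barcodes were kept in, so the values are a description.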

How the data were processed

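Droplet 3′ single-cell RNA-seq counts of 1 WT and 1 HKO mouse liver library were used as the authors deposited them, as whole-number UMI counts per gene and barcode from Cell Ranger 7.1.0 on mm10. Cell Ranger is named in the matrix headers, and R 3.0 and Seurat 3 in the submitters' processing notes. The annotation and the use of intronic reads were not given in the sources used here. Gene positions and sequences come from GENCODE for the same build.

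Every deposited barcode entered the totals. Classes used barcodes with at least 500 UMIs, 300 genes and at most 50% mitochondrial UMIs, 2000 variable genes, 30 principal components, 15 neighbours and Leiden clustering at resolution 1 (igraph 0.11.9, scanpy 1.11.5), in 2 stages, leaving out 679 genes of the immunoglobulin loci and the 9 members. Clusters were named from at least 3 markers detected in 10% of barcodes and 2-fold above the rest. Levels are CPM, with exact Poisson, Clopper-Pearson and conditional binomial intervals (scipy 1.17.1) at 95%. Of these, only the conditional binomial interval of a ratio was checked on simulated counts, which were independent, unlike UMIs that share a barcode. A count of 0 was given a floor of 3 counts per library. Alb-scaled values multiply the members' UMIs per Alb UMI at free RNA depth by the Alb UMIs of a class. With 1 library per group no test was run. Scrublet's own threshold marked 0 barcodes, so doublets were kept, and removing the top scores (0.8% per 1000 barcodes) was an alternative. The members and gene lists were chosen with earlier results of these data known. Named list genes had at least 10 UMIs in B and plasma-like or immunoglobulin-rich barcodes, up to 6 per list, and likeness was limited to 5 genes with at least 50 UMIs that are no immunoglobulin gene. Sdc1, the IgG genes other than Ighg2b and the V genes were named after their values were seen. No column of other samples was present.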

Additional observations from a re-analysis of the deposited data

How the results depend on the processing

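No paired analysis was possible because each genotype has 1 library and no test was run, and for the same reason no replicate could be left out. The HKO/WT ratio of the summed members over all barcodes (2.56) stayed above 1 under every alternative run. It was 3.69 without the highest barcode and 4.08 without the 5 highest barcodes of each library, 2.79 with filtered barcodes, 2.92 and 2.24 with at least 1000 and 5000 UMIs, 2.40 without the top Scrublet scores, 2.16 as a mean over barcodes and 2.20 when thinned to 750 UMIs. Leaving out the immunoglobulin-rich barcodes, an alternative added after seeing the data, gave 1.65, and turned Igha to 0.494 and Jchain to 0.850. With at least 5000 UMIs, Ighd turned to 0.439. In hepatocyte-like barcodes the ratio of the summed members (3.78) was 1.71 without the highest barcodes, 1.96 with no depth minimum and 0.617 without the immunoglobulin-rich barcodes, where Igkc turned to 0.690, Ighm to 0.797 and Jchain to 0.865. At free RNA depth the ratio (0.762) was 0.831 within 25% of the commonest depth and 0.705 without the top Scrublet scores. Immunoglobulin-rich barcodes numbered 10 WT and 18 HKO at 1%, and 2 and 7 at 20%. B and plasma-like barcodes numbered 34 WT and 199 HKO also with immunoglobulin genes kept in the clustering, and 70 WT and 203 HKO by at least 3 B cell markers. Thinning to 750 UMIs cut the share of the highest barcode to 16.8% in WT and 8.03% in HKO, since it levels deep barcodes. The cause of the other shifts was not tested. The minimum of 1000 UMIs was applied to the class without clustering again.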

Other observations

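The mixed class of plasmacytoid dendritic and monocyte and dendritic markers held 3 WT and 20 HKO barcodes with 12 and 48 member UMIs, of which 0 were of Igkc. The HKO UMIs held 16 of Iglc3 and 6 of Iglc2. Barcodes that failed the filters, at a median of 70.6% and 69.4% mitochondrial UMIs, held 161 WT and 139 HKO member UMIs, with 47 and 41 of Igha.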
